A study of Sus scrofa with 20 samples.

Results

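Hearts that had gone through repeated low-flow ischemia (RCS) were compared with hearts that had gone through repeated brief coronary occlusion (RCO). The comparison holds 5 RCS and 5 RCO arrays, which is 10 of the 20 arrays of the series. Its groups are set by protocol alone, but the comparison was chosen with earlier results of these data known. The animals were female pigs, and each array carried RNA from the heart. In RCS a stenosis lowered coronary flow for 90 min, 6 times at intervals of 12 h. In RCO the coronary artery was closed for 10 min and reopened for 10 min, 2 times a session, also in 6 sessions 12 h apart. The labels of the RCO samples mention 6 closures of 10 min and no second cycle, which comes from the description of the whole design, so the number of closures per session is not settled. Sham-operated pigs (control, n = 5) gave the reference level of each gene, and pigs sampled 24 h after a single session of brief occlusion (SWOP, n = 5) entered the plots. All 4 groups share sex and tissue. The labels do not state breed, age, the part of the heart sampled, or how long after the last RCO or RCS episode the tissue was taken.

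Both protocols starve the same muscle of blood at the same rhythm, and they differ in depth and duration. A full occlusion stops flow and ends in abrupt reperfusion, and short occlusions are the classic trigger of preconditioning, by which a heart becomes more resistant to a later infarct. Low flow leaves the muscle underperfused for much longer without fully stopping supply, a state linked to stunning and hibernation of the myocardium. Stretched or failing cardiomyocytes secrete natriuretic peptides, injured tissue draws in monocytes that become phagocytes, and a loaded secretory pathway calls up chaperones of the endoplasmic reticulum. The question put to the data was which transcripts separate the sustained from the brief form of repeated ischemia.

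All values are deposited log2 signals of an Affymetrix porcine array, and differences are log2 RCS minus RCO with a standard error (SE), so that 1 is a doubling. The array has 23999 probe sets that were tested, and the 10069 with a single gene symbol gave 6765 genes, each read from its brightest probe set. The median SE of a difference was 0.122, set by the 5 arrays per group. The arrays carried heart muscle RNA: the ventricular myosin genes MYH7 and MYL2 read 14.58 to 14.86 and 14.69 to 14.88 on the 10 arrays, with no difference past the threshold. The labels give 5 samples a group without naming the animal behind each, so p-values measure the spread between these samples. The 39 gene lists used below were written with earlier results of these data known. The shares of list members that passed are therefore a description beside the shares over all genes. Most genes with values below were picked by a rule from those past the threshold. Genes given as not passing, and MYH7, MYL2, CRELD2, CANX, PRM1, GAST and DSPP, lie outside the rule and were chosen after their values had been seen.

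RCO replicates 2 and 3 stood apart from the other RCO arrays. On the first principal component of all 20 arrays (48.9% of the variance) RCS scored 26.4 to 64.3, RCO replicates 2 and 3 scored 44.0 and 29.4, and the other 3 RCO arrays scored −18.3 to −3.56. Those 2 arrays lay among the RCS arrays, and the means differed by 39.3 (exact permutation p = 0.0397, adjusted p = 0.0833 over 7 array properties). They also resembled RCS in the 3′ minus 5′ signal of actin, 1 of 3 such measures of RNA integrity, at 0.682 and 0.747 against 0.513 to 0.695 in RCS and 1.05 to 1.31 on the other RCO arrays (RCS minus RCO −0.418, exact permutation p = 0.0238, adjusted p = 0.0833). The same measure differed by 0.0387 for GAPDH (exact permutation p = 0.333, adjusted p = 0.389) and by −0.0480 for the elongation factor EF1a (exact permutation p = 0.222, adjusted p = 0.311). The interquartile range of signals was wider in RCS, 3.36 against 3.19 (exact permutation p = 0.0476, adjusted p = 0.0833). The added spike-in transcripts gave a lower signal in RCS, 10.32 against 10.68 (exact permutation p = 0.00794, the smallest that 5 against 5 can give, adjusted p = 0.0556), with RCO replicate 1 highest at 11.09. The part of RNA integrity, signal spread and spike-in signal in the differences below was not tested. The median SD between arrays of 1 group was 0.218 in RCO and 0.154 in RCS. Results are therefore given with all 10 arrays and again without RCO replicates 2 and 3. Those 2 arrays were picked from the same values, as the RCO arrays nearest to RCS. Leaving them out therefore tends to widen the differences and to narrow the RCO spread. The counts without them are a description and no separate support.

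RCS and RCO differed in 267 of 6765 genes at a limma adjusted p below 0.05, the threshold used throughout (3.95% of genes). In RCS 150 genes were higher (2.22%) and 117 were lower (1.73%). Among probe sets 931 of 23999 passed (3.88%), 441 higher (1.84%) and 490 lower (2.04%). A change of at least 1.5-fold was reached by 105 of the higher and 54 of the lower genes, and a doubling by 39 and 12. All RCS arrays lay above all RCO arrays in 240 genes (3.55%) and below them in 234 (3.46%). At an unadjusted p below 0.05, 15.9% of genes were higher and 14.4% lower, the background for the counts of list members given at that level below. The higher genes were brighter than the lower ones, with median signals of 8.82 and 6.42 against 8.19 for all genes. With all probe sets cut into 3 equal bins by signal, 23.3% of the 287 that passed in the dimmest bin were higher in RCS, against 41.7% of 367 in the middle bin and 79.8% of 277 in the brightest.

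**Figure D1:**
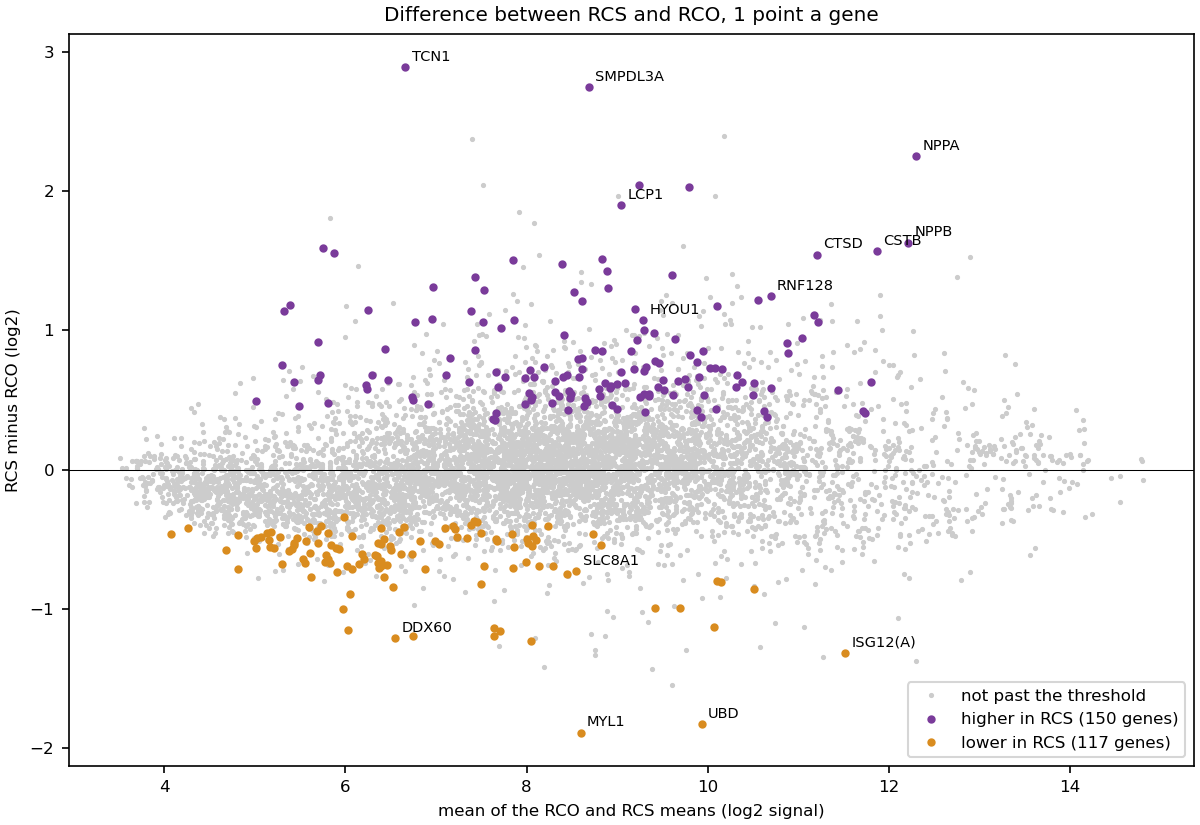
Difference between RCS and RCO (log2, vertical axis) against the mean of the RCS and RCO means (log2 signal, horizontal axis) for 6765 genes, 1 point a gene. The 150 genes past the threshold and higher in RCS (purple) reach 2.89 at TCN1 and include bright genes such as NPPA, while most of the 117 lower genes (orange) lie at dimmer signal.

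The number of genes that passed depended on single arrays. Leaving out RCO replicates 1 to 5 in turn gave 80, 1277, 312, 25 and 26 genes. Leaving out RCS replicates 1 to 5 in turn gave 124, 21, 7, 11 and 255. With RCO replicates 2 and 3 both left out 2077 genes passed (30.7%), 1127 higher (16.7%) and 950 lower (14%), and these held all 267 of the genes that passed with 10 arrays. They were 6243 probe sets (26%), 2995 higher (12.5%) and 3248 lower (13.5%). The rise was favoured by the choice of those 2 arrays. When control and SWOP shared the estimate of spread, 1468 genes passed (21.7%), 798 higher (11.8%) and 670 lower (9.9%), from 4572 probe sets (19.1%), 2099 higher (8.75%) and 2473 lower (10.3%). The sign of the difference was the same for all 267 genes whichever array was left out. These genes were chosen on the same 10 arrays, so a change of sign was unlikely, and this is no separate support.

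**Figure D2:**
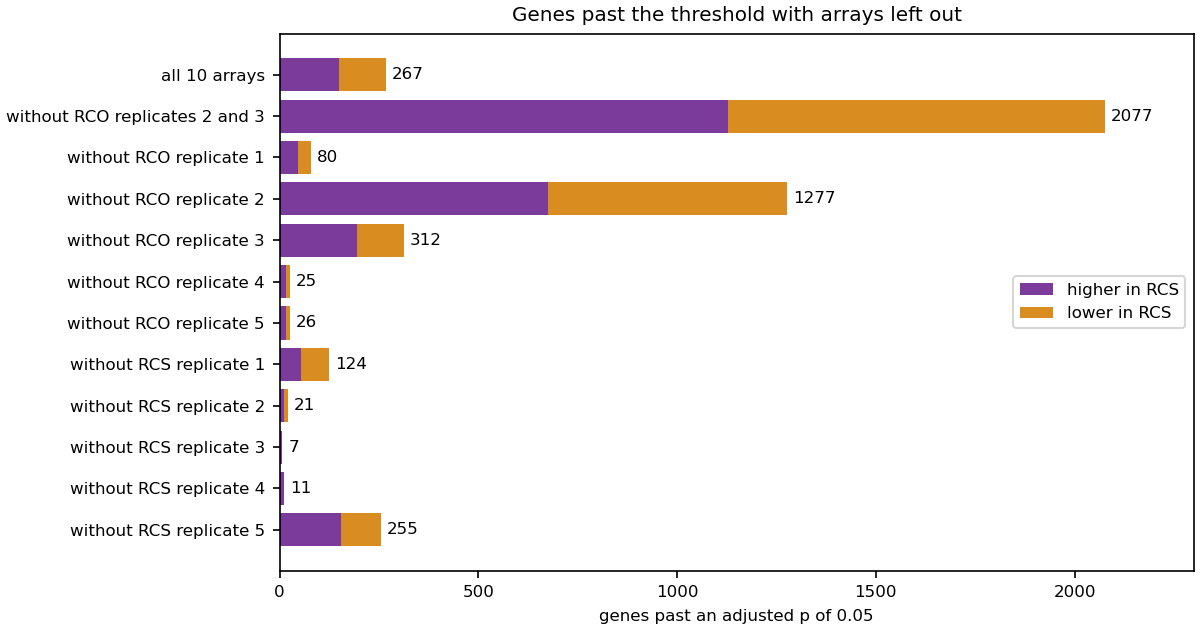
Number of genes past an adjusted p of 0.05 (horizontal axis, of 6765) with all 10 arrays, without RCO replicates 2 and 3 together, and without each array in turn, split into higher (purple) and lower (orange) in RCS. The count runs from 7 without RCS replicate 3 to 1277 without RCO replicate 2, and reaches 2077 without RCO replicates 2 and 3.

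Only 7 genes passed in all of these fits with arrays left out, 6 of them higher in RCS. In what follows, values of a group are in the order of replicates 1 to 5. TCN1, which encodes the vitamin B12 carrier haptocorrin, had the largest difference of all genes that passed. It read 8.36, 8.53, 7.95, 8.91 and 6.78 in RCS and 4.63, 5.65, 5.70, 4.87 and 5.23 in RCO, a 7.41-fold difference (log2 2.89 ± 0.35 SE, limma adjusted p = 0.0087). Every RCS array exceeded every RCO array, and the RCO arrays in turn exceeded the control range of 4.32 to 4.55. The control arrays and RCO replicates 1, 4 and 5 were dim, below 5.46, the 30th percentile of probe set signal. A second, separate probe set of TCN1 gave only 0.20 and did not pass, so the 2 probe sets disagree. The second was also dim, with a mean signal of 4.71. RNF128, an E3 ubiquitin ligase, read 11.13, 11.69, 11.37, 11.44 and 10.96 in RCS and 9.97, 9.84, 10.45, 10.13 and 9.98 in RCO, 2.37-fold apart with no overlap (limma adjusted p = 0.0087). RCO replicates 2 and 3 stayed with the other RCO arrays here, and a second probe set of RNF128 gave 1.39.

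SHTN1, which encodes the neuronal actin linker shootin, was 3.01-fold higher in RCS (log2 1.59 ± 0.22 SE, limma adjusted p = 0.012), at 6.08 to 7.07 against 4.54 to 5.41. QPCT, the glutaminyl cyclase that modifies peptide ends, was 2.94-fold higher (1.55 ± 0.19), at 6.21 to 6.94 against 4.70 to 5.70. Both were within the control range on 2 RCO arrays and above it on all RCS arrays. Their RCO means, 4.96 and 5.09, were dim. However, 2 dimmer probe sets of QPCT went the other way, at −0.40 and −0.22. The first of these also passed (limma adjusted p = 0.049), so probe sets of QPCT passed in both directions. B4GALT5, a galactosyltransferase of glycolipid synthesis, differed by 0.76 ± 0.11, and its 2 other probe sets by 0.48 and 0.87. HMGA1, an architectural chromatin protein, read 8.30, 8.36, 8.31, 8.36 and 8.24 in RCS against 7.52, 7.51, 7.83, 7.80 and 7.63 in RCO. The RCO arrays of HMGA1 lay close to the control range of 7.28 to 7.78, with every RCS array above it. DDX60, a helicase of the antiviral response, was the lower gene among the 7, at 6.12, 5.63, 6.13, 6.03 and 5.81 in RCS and 6.82, 6.98, 7.54, 7.26 and 7.16 in RCO (−1.21 ± 0.15 SE, limma adjusted p = 0.0087). All 5 RCS arrays also lay below the control range of 6.18 to 7.57.

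The natriuretic peptides separated the protocols by several fold. NPPA encodes atrial natriuretic peptide, which cardiomyocytes secrete when stretched. It read 13.09, 14.02, 13.62, 13.79 and 12.65 in RCS and 10.18, 10.82, 13.08, 11.25 and 10.58 in RCO, 4.76-fold higher in RCS (log2 2.25 ± 0.47 SE, limma adjusted p = 0.033). RCO replicate 3 alone reached the RCS range, and the other 4 RCO arrays stayed within the control range of 9.18 to 11.34. NPPB, the gene of B-type natriuretic peptide, read 12.82, 13.42, 13.61, 13.03 and 12.28 in RCS and 11.17, 11.28, 12.91, 10.79 and 10.86 in RCO (1.63 ± 0.38 SE, limma adjusted p = 0.042). Again RCO replicate 3 was the high one, while RCO replicate 2, the other array that stood apart, was not. With RCO replicates 2 and 3 left out the differences were 2.76 for NPPA and 2.09 for NPPB. Leaving out 1 array gave 2.0 to 2.73 for NPPA and 1.48 to 2.01 for NPPB, and both genes missed the threshold without any 1 of RCO replicates 1, 4 and 5 or RCS replicates 1 to 4. NPPB also missed it when all 4 groups were fitted together.

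The peptides were the 2 of 17 measured genes of the fetal program and load response that passed. Both were higher (11.8% against 2.22% of all genes). The list is made of genes of the developing or overloaded heart. Its median difference was 0.30, against −0.01 for all genes. The stress-induced ankyrin repeat gene ANKRD1 differed by 0.29 ± 0.10, with adjusted p = 0.090, and the slow myosin gene MYH7 by 0.06 ± 0.08. XIRP2, an actin-binding protein of intercalated discs, gave 1.07 ± 0.36 with adjusted p = 0.090. Of the 17 genes 7 were higher (41.2%) and 1 was lower (5.88%) without RCO replicates 2 and 3. Over all genes 16.7% were then higher and 14% lower.

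Some genes of phagocytes and of lysosomes were higher in RCS. LCP1, the leukocyte actin bundler L-plastin, read 9.99, 10.24, 10.38, 9.95 and 9.40 in RCS and 6.82, 9.47, 8.97, 7.86 and 7.36 in RCO, 3.72-fold higher in RCS (log2 1.90 ± 0.44 SE, limma adjusted p = 0.041). RCO replicate 2 was inside the RCS range and RCO replicate 1 inside the control range of 6.63 to 7.09, so the RCO arrays spanned most of the distance between the groups. Its 4 other probe sets differed by 0.35 to 2.21, all in the same direction. SPI1, the transcription factor PU.1 that sets myeloid identity, read 9.68, 9.46, 9.84, 9.69 and 9.23 in RCS and 8.41, 9.22, 8.70, 8.56 and 8.74 in RCO (0.85 ± 0.16 SE, limma adjusted p = 0.026). The 2 groups did not overlap in SPI1, although RCO replicate 2 came close to the lowest RCS array. LCP1 and SPI1 were the 2 of 23 macrophage and monocyte markers that passed, both higher (8.70% against 2.22% of all genes), and 0 were lower.

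The marker list as a whole was uneven. Its median difference was 0.24, with 14 of 23 markers above 0 and 9 below. LGALS3, which encodes galectin-3, had the largest difference of the list at 2.39 ± 0.82, and GPNMB, a glycoprotein of lipid-laden macrophages, followed at 1.97 ± 0.65. Neither passed (adjusted p = 0.097 and 0.089), since RCO ran from 5.68 to 11.05 in LGALS3 and from 7.11 to 10.93 in GPNMB. Of the 9 markers below 0, MRC1, MARCO, C1QA and C1QC gave −0.46, −0.54, −0.57 and −0.33, and none of the 4 passed. Averaged over the 23 markers and set against the control mean, RCS arrays scored 1.14 to 1.55, RCO replicates 2 and 3 scored 1.83 and 1.39, and the other RCO arrays 0.302 to 0.690. The summed marker level was thus highest of all on an RCO array. When RCO replicates 2 and 3 were left out, 13 markers were higher and 1 was lower, with a median of 0.53, where 16.7% of all genes were higher and 14% lower. In whole heart tissue, more cells of a type and more RNA per cell cannot be told apart.

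Lysosomal genes had 3 of 29 members past the threshold, all higher (10.3% against 2.22% of all genes), with a list median of 0.47. CTSD, the aspartic protease cathepsin D, read 11.74, 12.03, 12.54, 12.12 and 11.46 in RCS and 9.35, 11.02, 10.93, 10.57 and 10.30 in RCO, 2.92-fold higher in RCS (log2 1.54 ± 0.30 SE, limma adjusted p = 0.029). No RCO array reached an RCS array, and RCO replicate 1 lay below the control range of 9.78 to 10.12. CTSZ, the carboxypeptidase cathepsin Z, was 2.16-fold higher, at 11.08 to 12.10 against 9.82 to 11.18. ATP6AP2, an accessory subunit of the proton pump and the prorenin receptor, was 1.60-fold higher, at 10.34 to 10.94 against 9.69 to 10.27. Of the 29 genes 24 lay above 0, among them the cathepsin genes CTSH (1.09) and CTSB (0.82), LIPA (1.10) and PSAP (1.10), none of which passed. The autophagy genes proper stayed near 0, with BECN1 at −0.03, ATG7 at −0.03 and MAP1LC3B at 0.10. Leaving out RCO replicates 2 and 3 gave 17 of 29 higher (58.6%) and 1 lower (3.45%), against 16.7% and 14% of all genes.

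CSTB encodes cystatin B, an inhibitor of cathepsins, and is not on the lysosome list. It read 12.76, 12.80, 13.05, 12.66 and 11.99 in RCS and 10.23, 12.00, 11.78, 10.80 and 10.61 in RCO (log2 1.57 ± 0.33 SE, limma adjusted p = 0.033). The order of its RCO arrays was the same as in LCP1, with replicate 2 highest and replicate 1 lowest. SMPDL3A, a secreted phosphodiesterase related to acid sphingomyelinase, had the second largest difference at 2.75 ± 0.52, with 9.05 to 11.42 in RCS. Its RCO values were 5.55, 7.80, 7.91, 7.68 and 7.64, so replicate 1 lay far below the other 4, and below the control range of 6.14 to 6.52. CPM, a membrane carboxypeptidase, was 4.09-fold higher, at 10.05 to 11.43 against 7.34 to 10.13. CD1.1, a pig CD1 molecule that presents lipid antigens, was 2.64-fold higher with no overlap, at 9.81 to 10.74 against 8.08 to 9.78.

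Of the other genes with large differences, TPD52, a vesicle trafficking protein, was 2.84-fold higher in RCS, at 8.03 to 8.84 against 6.24 to 7.67. RPS6KA1, a kinase downstream of ERK, was 2.78-fold higher, at 8.69 to 9.44 against 6.56 to 9.01, with RCO replicate 2 inside the RCS range. A probe set that the platform table assigns to AMBN, an enamel matrix protein, read 9.87 to 10.87 in RCS, 6.93 to 9.29 in RCO and 6.24 to 6.86 in control. Heart is not a known site of AMBN, and its probe sequence was not used here. The differences of these genes without RCO replicates 2 and 3 were 1.88 for TPD52, 2.09 for RPS6KA1 and 2.55 for AMBN. Of the 12 genes AMBN, LCP1, SPI1, CTSD, CTSZ, ATP6AP2, CSTB, SMPDL3A, CPM, CD1.1, TPD52 and RPS6KA1, each missed the threshold when any 1 of RCO replicates 4 and 5 and RCS replicates 2, 3 and 4 was left out.

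Chaperones of the endoplasmic reticulum, which fold secreted and membrane proteins, formed the list with the largest median difference of the 39 examined, 0.59. Of 23 measured members 5 passed, all higher in RCS (21.7% against 2.22% of all genes), and 22 of 23 lay above 0. CRELD2, a secreted chaperone of the unfolded protein response, read 10.32, 9.41, 9.74, 9.38 and 8.92 in RCS and 7.85, 8.85, 8.76, 8.11 and 7.69 in RCO, 2.47-fold higher in RCS (log2 1.30 ± 0.28 SE, limma adjusted p = 0.036). All RCO arrays lay above the control range of 6.98 to 7.38 and all RCS arrays above the RCO arrays. HYOU1, a large chaperone induced by low oxygen, read 10.00, 9.73, 10.08, 9.62 and 9.70 in RCS and 7.95, 9.08, 9.29, 8.76 and 8.68 in RCO (1.07 ± 0.21 SE, limma adjusted p = 0.030). It too separated the groups without overlap, and RCO replicate 1 lay below control.

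The other 3 were the oxidase ERO1A, the translocon subunit SEC61G and the lectin chaperone CANX. ERO1A, which renews the oxidant for disulfide bonds, read 7.81 to 8.20 in RCS and 7.04 to 7.83 in RCO, with only RCO replicate 2 touching the RCS range. SEC61G read 10.69 to 11.21 against 10.20 to 10.62 (0.59 ± 0.12), but its second probe set gave −0.07. CANX read 11.85 to 12.05 against 11.33 to 11.75 (0.40 ± 0.10). The master chaperone HSPA5 differed by 0.63 ± 0.18 and missed the threshold (adjusted p = 0.067), and DDIT3, the death-promoting factor CHOP, was the 1 member below 0 at −0.77 ± 0.40 (adjusted p = 0.23). As an average over the list above control, RCS scored 0.835 to 1.38, RCO replicates 2 and 3 0.811 and 0.937, and the other RCO arrays 0.318 to 0.441. Without those 2 arrays 18 members were higher (78.3%), 1 was lower (4.35%) and the median was 0.82. Over all genes 16.7% were then higher and 14% lower. Leaving out 1 array gave medians of 0.52 to 0.66, while the number of members that passed ran from 0 to 13. HSPA13, an Hsp70 relative of the microsomes, was the single member of 31 heat shock proteins that passed, at 9.47 to 9.86 in RCS against 8.52 to 9.28 in RCO (0.71 ± 0.15).

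**Figure D3:**
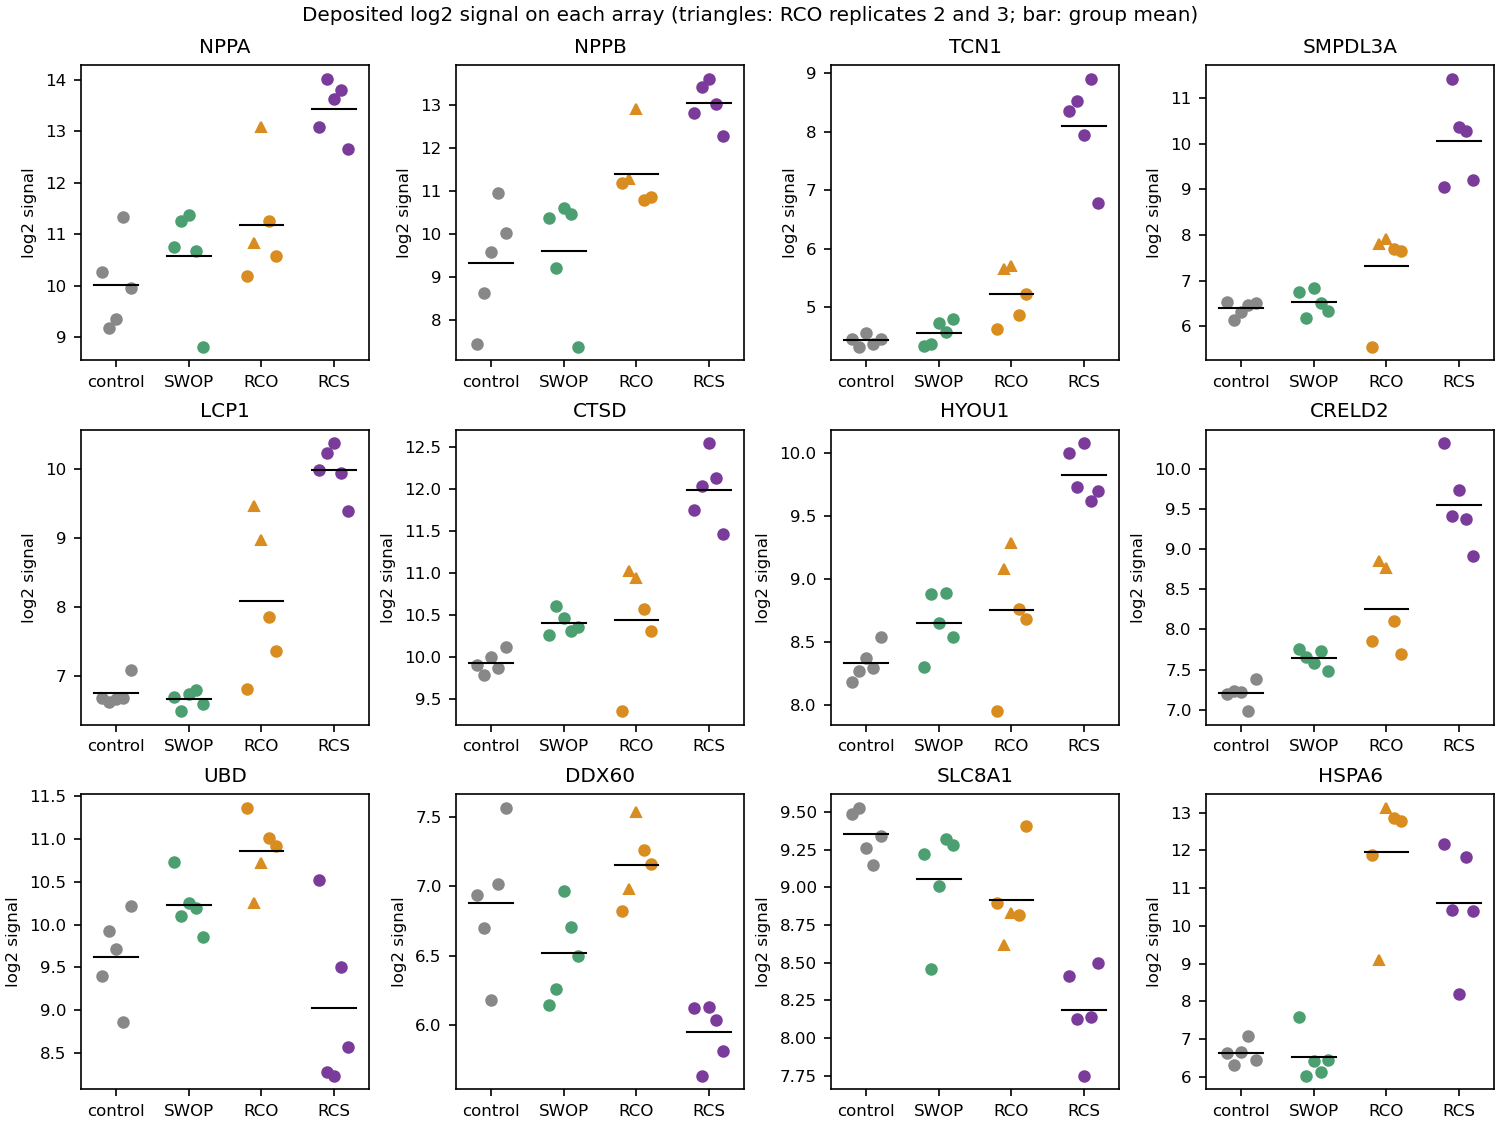
Deposited log2 signal (vertical axes, a scale of its own in each panel) of 12 genes on each array of control, SWOP, RCO and RCS, 1 point an array, with a bar at the group mean and RCO replicates 2 and 3 as triangles. In TCN1, CTSD, HYOU1 and CRELD2 every RCS array lies above every RCO array, in NPPA and NPPB only RCO replicate 3 reaches the RCS arrays, and in HSPA6 the RCS arrays spread from 8.19 to 12.17 across the RCO range.

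Of 34 genes of actin and microtubule remodelling, annexins and S100 proteins, 3 were higher (8.82% against 2.22% of all genes) and 0 were lower. All 3 were actin regulators. The list median was 0.52, with 30 members above 0. CFL1, the filament-severing protein cofilin, read 11.58, 11.83, 12.17, 11.85 and 11.32 in RCS and 10.27, 11.30, 10.95, 10.55 and 10.37 in RCO (log2 1.06 ± 0.21 SE, limma adjusted p = 0.029). The groups came close without overlapping, and RCO replicate 2 was again the highest RCO array. ACTR2, a subunit of the Arp2/3 nucleator, was 1.79-fold higher, at 10.99 to 11.62 against 10.18 to 10.90. CAPZB, which caps filaments, was 1.58-fold higher, at 10.04 to 10.42 against 9.10 to 9.91, with other probe sets at 0.47 and −0.19. With RCO replicates 2 and 3 left out, 23 members were higher (67.6%) and 0 were lower, against 16.7% and 14% of all genes. The 5 RCS arrays averaged 0.920 to 1.36 above control over this list, and the RCO arrays 0.0609, 1.19, 0.921, 0.530 and 0.372.

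Of the extracellular matrix lists, 0 members passed the threshold. The 30 matricellular proteins, crosslinkers and proteases had a median of 0.48 with 23 members above 0, and the 24 collagens and basement membrane genes a median of 0.36. At an unadjusted p below 0.05, 8 of the 30 were higher and 3 lower, and 3 of the 24 were higher and 1 lower, against 15.9% and 14.4% of all genes. Without RCO replicate 1 the median of the 24 was 0.14. SPP1, which encodes osteopontin, differed by 1.53 ± 0.70 (adjusted p = 0.18), with RCS at 13.28 to 14.06 and RCO at 9.0, 13.27, 13.60, 12.75 and 12.05. POSTN, the matricellular protein periostin, differed by 1.25 ± 0.39 (adjusted p = 0.078), and FN1, fibronectin, by 1.38 ± 0.65 (adjusted p = 0.19). In all 3 genes RCO replicates 2 and 3 were at or near the RCS level and RCO replicate 1 was the lowest RCO array.

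Without RCO replicates 2 and 3, 21 matricellular genes were higher (70%) and 2 lower (6.67%). Of the 24 collagen and basement membrane genes 11 were then higher (45.8%) and 1 lower (4.17%). Over all genes 16.7% were higher and 14% lower. The medians of these lists moved to 0.96 and 0.66. The 19 fibroblast markers behaved alike, with 0 members past the threshold on 10 arrays and a median of 0.41. Without the 2 arrays 11 of the 19 were higher (57.9%) and 1 was lower (5.26%). By list average above control, the matricellular genes scored 1.21 to 1.68 in RCS and 0.151, 1.61, 1.59, 0.895 and 0.603 in RCO. RCO replicates 2 and 3 thus carried as much of these transcripts as RCS hearts, and the other RCO arrays less.

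**Figure D4:**
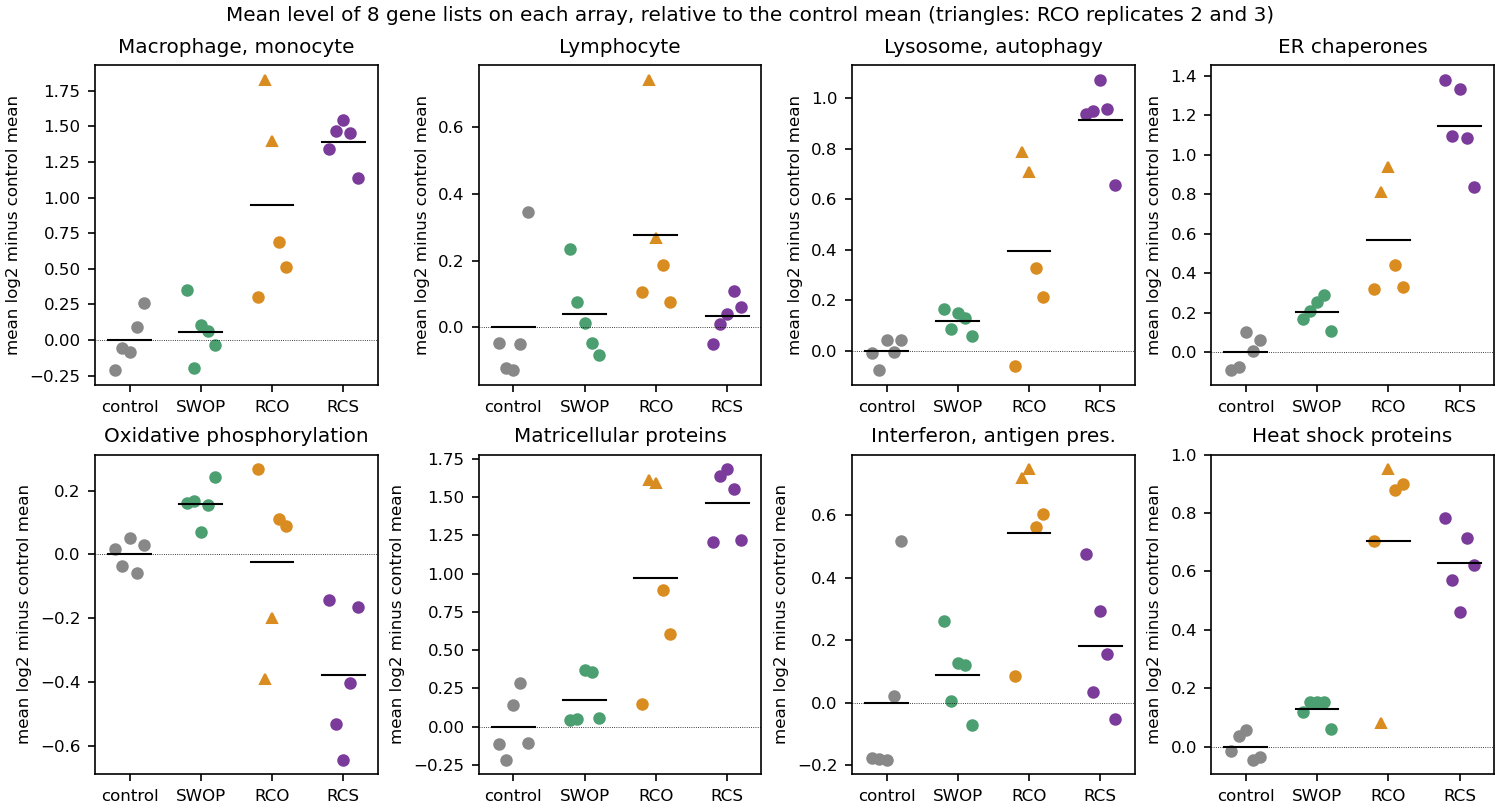
Mean log2 level of the members of 8 gene lists on each array, relative to the control mean (vertical axes, a scale of its own in each panel), with a bar at the group mean and RCO replicates 2 and 3 as triangles. For endoplasmic reticulum chaperones and lysosomal genes the triangles lie between the other RCO arrays and most RCS arrays, and for macrophage markers RCO replicate 2, at 1.83, lies above every RCS array.

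Several metabolic and growth genes were higher in RCS. CKB, brain-type creatine kinase, read 9.63 to 10.48 in RCS and 8.59 to 9.53 in RCO (0.93 ± 0.21), and BCAT1, the cytosolic branched-chain aminotransferase, 5.77 to 6.57 against 4.99 to 5.82 (0.92 ± 0.19). They were the 2 of 19 genes of creatine, branched-chain and ketone metabolism that passed (10.5% against 2.22% of all genes higher). The list median was −0.29. GCLC, the limiting enzyme of glutathione synthesis, read 7.40, 7.35, 8.03, 7.32 and 7.17 in RCS and 6.80, 6.66, 6.80, 6.84 and 6.76 in RCO (0.68 ± 0.14). Its groups did not overlap, yet 2 of its 4 other probe sets had the opposite sign. TXNRD1, a thioredoxin reductase, was 1.33-fold higher, with other probe sets at 0.36 and −0.12. GCLC and TXNRD1 were the 2 members that passed among 28 antioxidant enzymes (7.14% against 2.22% of all genes higher, list median 0.09). SCD, a fatty acid desaturase, was 2.69-fold higher in RCS than in RCO, at 9.09 to 10.10 against 7.49 to 9.08. Control pigs ran from 6.78 to 11.86 in SCD, wider than both ischemic groups together. Control replicate 4 alone gave the high end, and the other controls read 6.78 to 7.78. SCD missed the threshold when all 4 groups were fitted. PPARG, a regulator of fat cell genes, was 1.43-fold higher. SCD and PPARG are the 2 of 14 adipocyte markers that passed (14.3% against 2.22% of all genes higher). The median of that list was −0.02. TGFBR1, a receptor of transforming growth factor beta, was 1.73-fold higher, with other probe sets at 0.37 and −0.22.

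Several interferon-stimulated genes were lower in RCS than in RCO. Of 41 genes of the interferon response and antigen presentation 4 passed, all lower (9.76% against 1.73% of all genes), the median was −0.37 and 33 lay below 0. UBD, a ubiquitin-like modifier induced by cytokines, read 10.52, 8.28, 8.24, 9.51 and 8.57 in RCS and 11.36, 10.25, 10.72, 11.01 and 10.91 in RCO, 3.55-fold lower in RCS (log2 −1.83 ± 0.40 SE, limma adjusted p = 0.036). Only RCS replicate 1 lay within the RCO range. XAF1, an interferon-induced promoter of apoptosis, read 7.90, 6.40, 7.57, 6.86 and 6.62 in RCS and 8.34, 8.04, 8.18, 8.19 and 8.28 in RCO (−1.14 ± 0.25 SE, limma adjusted p = 0.036). Here the RCO arrays were tight and the RCS arrays scattered below them. GBP2, an interferon-induced GTPase, was 2.29-fold lower at 6.61 to 7.77 against 7.69 to 8.94, and IFI44L was 1.81-fold lower at 9.73 to 10.66 against 10.68 to 11.18. Its 2 other probe sets gave −0.83 and −0.47. ISG12(A), a mitochondrial interferon-stimulated gene outside the list, was 2.49-fold lower, at 10.14 to 11.52 against 11.15 to 12.77.

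In these genes the control mean lay between the group means, at 9.62 for UBD, 7.66 for XAF1, 7.37 for GBP2, 10.49 for IFI44L and 11.34 for ISG12(A). RCO means were above and RCS means below each. The average over the 41 genes behaved otherwise, at 0.475, 0.0340, 0.292, 0.156 and −0.0507 relative to control in RCS and 0.0844, 0.718, 0.747, 0.560 and 0.603 in RCO. It was above the control mean on 4 of 5 RCS arrays, and RCO replicate 1 lay among the RCS arrays. The control arrays ran from −0.182 to 0.518, a range that held all 5 RCS arrays and RCO replicate 1. Control replicate 5 alone gave the upper end of that range. Control itself varied, from 10.70 to 12.61 in ISG12(A). RCO replicates 2 and 3 did not stand with RCS here, and without them the median was −0.31. The list then had 7 lower and 5 higher members of 41, where 14% of all genes were lower and 16.7% higher. These 5 genes missed the threshold without any 1 of RCS replicates 2 to 4 and RCO replicates 4 and 5. The list was not uniform: RSAD2 gave −1.21 ± 0.38 and ISG15 −0.91 ± 0.34 without passing (adjusted p = 0.082 and 0.11), and SLA-DRB1, CD74 and IFI30 of antigen presentation gave 0.06, 0.38 and 1.24, none past the threshold.

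Among lymphocyte markers, 2 were lower in RCS and 0 were higher. CD3G, a chain of the T-cell receptor complex, read 4.83, 4.83, 5.01, 5.04 and 5.08 in RCS and 5.62, 6.14, 5.44, 5.52 and 5.45 in RCO (log2 −0.68 ± 0.13 SE, limma adjusted p = 0.030). Every RCS array lay below every RCO array and below the control range of 5.22 to 5.65. The signal of CD3G was dim, with all its RCS arrays below 5.46, the 30th percentile of probe set signal. GNLY, a granule protein of cytotoxic cells, read 7.46 to 7.74 in RCS, 7.95 to 8.46 in RCO and 7.89 to 8.94 in control. The list has 18 measured markers (11.1% lower, against 1.73% of all genes), with a median of −0.33 and 15 members below 0. By list average above control RCS scored −0.0488 to 0.109 and RCO 0.106, 0.741, 0.268, 0.187 and 0.0762, so RCO replicate 2 carried the highest level. NPG4, a protegrin of neutrophil granules, was the 1 of 10 neutrophil markers that passed (−0.68 ± 0.15). That is 10% of the list, against 1.73% of all genes lower. The other probe sets of NPG4 gave −0.47 to 0.04. AHSP, the chaperone of free alpha globin, read 5.99, 5.34, 5.28, 5.51 and 5.13 in RCS and 7.18, 6.85, 6.20, 6.53 and 6.26 in RCO (−1.15 ± 0.21). It was the 1 of 4 red cell genes that passed (25% against 1.73% of all genes lower). HBB, the beta globin gene, differed by −0.02 ± 0.15. The part of blood left in the tissue in these differences was not tested.

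Some genes of ion transport and of hormone signals to the cardiomyocyte were lower in RCS. KCNJ2, the inward rectifier channel that holds the resting potential, read 6.17, 6.02, 5.99, 6.32 and 5.99 in RCS and 6.99, 6.60, 6.97, 6.59 and 7.56 in RCO (log2 −0.84 ± 0.17 SE, limma adjusted p = 0.030). Of the RCO arrays 4 lay within the control range of 6.54 to 7.45 and replicate 5 above it, and the RCS arrays all lay below it. SLC8A1, the sodium-calcium exchanger, read 8.41, 8.13, 7.75, 8.14 and 8.50 in RCS and 8.90, 8.62, 8.83, 8.82 and 9.41 in RCO, with control at 9.15 to 9.53. For this gene RCO was itself mostly below control and RCS lower still. The 2 were the members that passed of 22 genes of calcium handling and excitation (9.09% against 1.73% of all genes lower). The list median was −0.17. RYR2, the calcium release channel, gave −0.72 ± 0.24 with adjusted p = 0.090, and ATP2A2, the calcium pump of the sarcoplasmic reticulum, −0.26 ± 0.13 with adjusted p = 0.23.

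Of 19 genes of beta-adrenergic and angiotensin signalling, 3 passed, all lower (15.8% against 1.73% of all genes), around a list median of −0.07. AGTR1, the type 1 angiotensin receptor, read 8.36, 7.73, 7.69, 7.89 and 8.06 in RCS and 8.70, 8.43, 8.65, 8.78 and 8.64 in RCO (log2 −0.69 ± 0.13 SE, limma adjusted p = 0.027). PDE3A, which degrades cyclic AMP in cardiomyocytes, read 7.87 to 8.35 in RCS and 8.43 to 9.39 in RCO (−0.75 ± 0.17), but its dimmer probe set gave −0.02. AGTR1 and PDE3A descended from control through RCO to RCS without overlap between RCO and RCS, the control ranges being 8.91 to 9.39 and 9.45 to 9.81. NOS2, the inducible nitric oxide synthase, read 6.52 to 6.91 in RCS and 6.96 to 7.48 in RCO, the latter close to the control range of 6.97 to 7.56. A dimmer probe set of NOS2 gave −0.36 and did not pass. FGF1, an angiogenic growth factor of cardiomyocytes, read 4.99 to 5.52 against 5.80 to 6.21 (−0.77 ± 0.13). Its dimmer probe set gave −0.22 and did not pass. Without each array in turn FGF1 differed by −0.84 to −0.71 and AGTR1 by −0.80 to −0.63. Both missed the threshold without RCO replicate 5 or RCS replicates 2, 3 or 4.

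Enzymes of fatty acid oxidation were lower in 2 of 37 cases (5.41% against 1.73% of all genes). The list median was −0.30, with 29 members below 0. ACADSB, a dehydrogenase of short branched acyl-CoA, read 10.16, 9.43, 9.27, 9.61 and 10.08 in RCS and 10.38, 10.33, 10.35, 10.67 and 10.82 in RCO, against 10.96 to 11.11 in control. Its second probe set also passed, at −0.72. CPT2, which frees fatty acids from carnitine inside mitochondria, read 5.85, 5.75, 5.73, 5.82 and 6.24 in RCS and 6.45, 6.27, 6.31, 6.80 and 6.60 in RCO. RCO stayed at the control level of CPT2, 6.29 to 6.81, and RCS lay below it. The respiratory chain and ATP synthase showed no gene past the threshold among 54, yet 53 of 54 differences were below 0 with a median of −0.35, and 32 were lower and 0 higher at an unadjusted p below 0.05. COX7A1, a muscle subunit of complex IV, had the largest of these differences, −0.74 ± 0.24 with adjusted p = 0.084, at 11.91 to 13.19 in RCS and 12.83 to 13.66 in RCO. List averages relative to control were −0.143, −0.531, −0.644, −0.405 and −0.166 in RCS and 0.268, −0.393, −0.201, 0.112 and 0.0891 in RCO. RCO replicates 2 and 3 were again on the side of RCS. Without them 45 of 54 genes were lower (83.3%), 0 were higher and the median was −0.54. Over all genes 14% were then lower and 16.7% higher.

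Other lower genes came from varied families. MYL1, a fast skeletal myosin light chain, had the largest fall at log2 −1.89 ± 0.37 (limma adjusted p = 0.029). It read 7.89, 7.19, 7.05, 8.25 and 7.89 in RCS, within the control range of 6.50 to 9.05, and 10.02, 10.70, 8.95, 8.55 and 9.49 in RCO. Of the RCO arrays, replicates 1, 2 and 5 lay above the control range and replicates 3 and 4 within it. LYPD6, of the Ly6 family, read 6.89 to 8.12 in RCS and 8.22 to 9.13 in RCO, and MLF1, a nuclear adaptor protein, 8.76 to 10.24 against 9.97 to 11.17. EPHX1, the microsomal epoxide hydrolase, read 8.60 to 9.84 against 9.73 to 10.39, and GNMT, a methyltransferase of glycine, 5.45 to 6.74 against 6.62 to 8.12. NOSTRIN, which moves endothelial nitric oxide synthase off the membrane, was 2.23-fold lower, while the median of 18 endothelial markers was 0.07. ENPP2, the enzyme autotaxin that makes lysophosphatidic acid, was 1.86-fold lower, at 5.21 to 6.07 against 6.18 to 7.17. STOX1, a DNA-binding protein, read 5.05 to 6.13 in RCS and 6.17 to 6.66 in RCO.

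Some lower genes are ones not known as heart transcripts and lay at dim signal. PRM1, which encodes a sperm protamine, read 5.58 to 5.75 in RCS and 6.09 to 6.55 in RCO (log2 −0.69 ± 0.11, limma adjusted p = 0.018). GAST, the stomach hormone gastrin, gave −0.64 ± 0.14, and DSPP, a dentin protein, −0.56 ± 0.08. The cytokine genes CSF3 and TNF passed at similar sizes and signals, at −0.56 ± 0.11 and −0.54 ± 0.13, with CSF3 at 5.49 to 5.71 in RCS and 5.90 to 6.45 in RCO. Of the 117 lower genes 20 lay below the 30th percentile of signal (17.1%), against 5 of the 150 higher genes (3.33%) and 12.2% of all genes. A call of presence for each probe set was not used here, and the part of background signal in the dim differences was not tested.

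Heat shock proteins of the cytosol and nucleus, which refold damaged proteins, lay above control in both groups and varied widely within each. Of 31 members 1 passed (3.23% against 2.22% of all genes higher). It was HSPA13, above, which belongs to the microsomes, and no other member passed. At an unadjusted p below 0.05, 4 were higher and 1 was lower, against 15.9% and 14.4% of all genes. The list median was 0.04. HSPA6, an inducible Hsp70, read 12.17, 10.43, 8.19, 11.82 and 10.40 in RCS and 11.88, 9.10, 13.13, 12.85 and 12.77 in RCO, against 6.32 to 7.09 in control. The difference was −1.34 ± 0.85 with adjusted p = 0.32, and leaving out 1 array gave −2.06 to −0.74. DNAJB1, the Hsp40 partner of Hsp70, gave −1.13 ± 0.51 (adjusted p = 0.18) and HSPH1, a nucleotide exchange factor of Hsp70, −0.42 ± 0.32 (adjusted p = 0.41). In all 3 genes RCO replicate 2 was the lowest RCO array and RCS replicate 3 the lowest RCS array. The list median changed sign with the setting. It was −0.10 without RCO replicates 2 and 3, where 3 members were higher and 3 lower (9.68% each). The shares over all genes were then 16.7% and 14%. The list median was −0.10 without RCO replicate 2 alone, −0.0090 without RCS replicate 1 and −0.03 after quantile normalization.

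Among 15 immediate early genes NR4A2, a nuclear receptor switched on within minutes of a stimulus, was the 1 that passed. It was lower, as 6.67% of the list against 1.73% of all genes. It read 5.22, 5.73, 5.49, 5.83 and 5.43 in RCS and 5.94, 5.87, 6.73, 6.60 and 6.22 in RCO (log2 −0.73 ± 0.18 SE, limma adjusted p = 0.048), and control spanned 5.38 to 7.61. It passed in 1 of the 10 fits with an array left out, that without RCO replicate 2, and missed the threshold when all 4 groups were fitted. ATF3, a stress transcription factor, gave −1.28 ± 0.43 with adjusted p = 0.092, at 9.07 to 10.59 in RCS and 9.77 to 12.09 in RCO. LDHA, a subunit of lactate dehydrogenase, gave 0.65 ± 0.17 with adjusted p = 0.051, and all its RCS arrays (12.50 to 12.98) lay above all RCO arrays (11.54 to 12.36).

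The 39 lists together held 886 measured genes, of which 23 were higher (2.60%) and 22 lower (2.48%), near the 2.22% and 1.73% of all genes. No member passed in 17 lists, which include 59 cytosolic ribosomal proteins (median 0.11), 37 genes of cell division (0.15), 30 of the proteasome and ubiquitin (0.11), 24 of the sarcomere (−0.14), 25 of glycolysis (0.01), 20 induced by glucocorticoids (0.03) and 7 of the circadian clock (−0.08). At an unadjusted p below 0.05, 11 of 59 ribosomal and 7 of 37 cell division genes were higher and 0 were lower. The shares over all genes were 15.9% and 14.4%. Without RCO replicates 2 and 3, 13 cell division genes (35.1%) and 4 ribosomal genes (6.78%) were higher, and 1 ribosomal gene (1.69%) was lower. Over all genes 16.7% were then higher and 14% lower. The median of 23 complement and acute phase genes changed sign when the 2 arrays were left out, from −0.14 to 0.19. HP, the hemoglobin scavenger haptoglobin, was the member of that list that passed (4.35% against 1.73% of all genes lower). It read 5.42 to 5.79 in RCS and 5.81 to 6.33 in RCO (−0.46 ± 0.11).

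**Figure D5:**
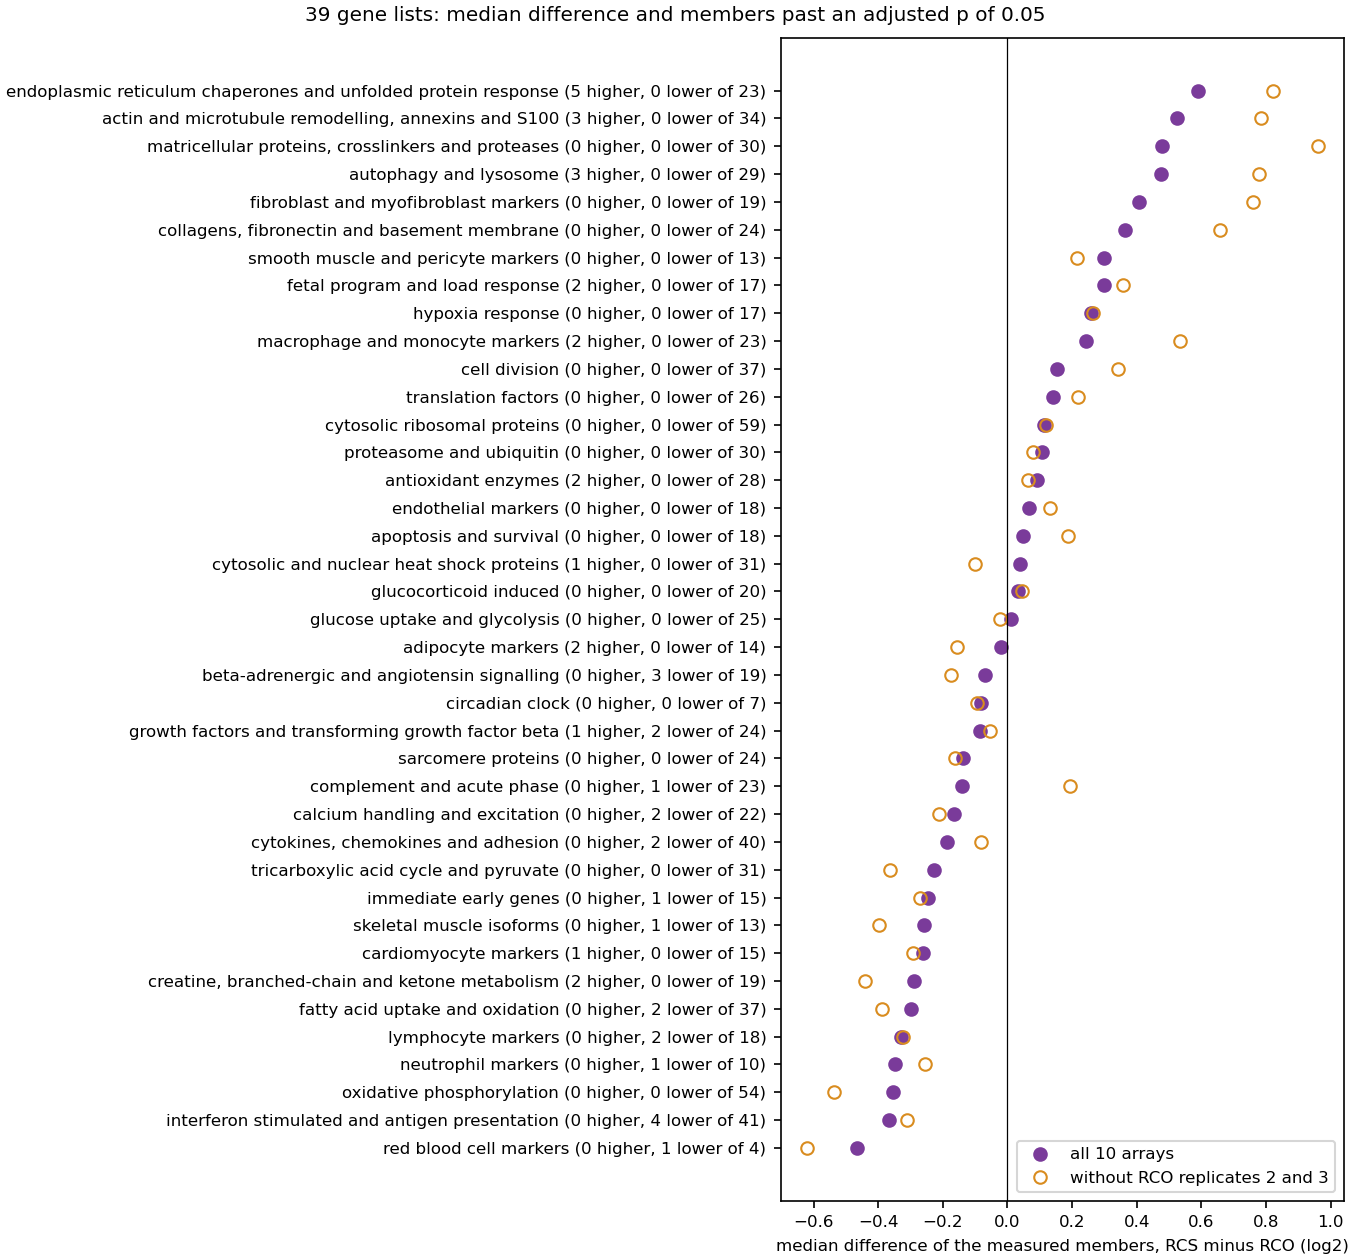
Median difference of the measured members of each of 39 gene lists, RCS minus RCO (log2, horizontal axis), with all 10 arrays (filled) and without RCO replicates 2 and 3 (open); counts of members past the threshold stand beside each name. The medians run from −0.46 for 4 red blood cell genes to 0.59 for 23 endoplasmic reticulum chaperones, and without the 2 arrays the matricellular median moves from 0.48 to 0.96.

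Set against sham hearts, most genes higher in RCS showed an intermediate level in RCO. The RCO mean lay between control and RCS for 124 of the 150 higher genes (82.7%), and for the other 26 RCO and RCS lay on opposite sides of control. Of the 117 lower genes, 70 had RCO in between (59.8%), 45 had the groups on opposite sides of control (38.5%), and 2 had RCO farther from control on the same side. Over all 6765 genes the shares were 63.6% in between and 19.0% on opposite sides. These places are a description, since the same RCO and RCS values choose the genes. Among the genes named above, LCP1, CTSD, CRELD2, AGTR1 and ACADSB had the RCO mean in between. UBD, XAF1, CD3G and AHSP had the RCO mean above and the RCS mean below the control mean. Single arrays could overlap control, as in XAF1, where RCO read 8.04 to 8.34 within a control range of 7.26 to 8.35. UBD on RCS replicate 1, at 10.52, lay above its control range of 8.86 to 10.21. MYL1 had an RCO mean of 9.54 against 7.52 in control and 7.65 in RCS. Without RCO replicates 2 and 3 the RCO mean lay in between for 49.6% of all genes, for 64.5% of the 1127 genes then higher and for 36.6% of the 950 then lower, which are different sets of genes.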

How the data were processed

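Per the labels' protocols, heart RNA was extracted with Trizol, copied with a T7-oligo(dT) primer, biotin-labelled and hybridised to Affymetrix porcine arrays. The values used are the authors' deposited log2 signals, 1 per probe set and array; the submitters' processing notes name RMA and MAS5 without roles or versions, and log base 2 was inferred from the range of values. Medians per array were alike (6.79 in RCS and RCO), so no further scaling was applied. Of 24123 probe sets, 124 control spots were left out.

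RCS and RCO (5 arrays each) were compared with limma 3.58.1 (lmFit, eBayes) in R 4.3.3, with Benjamini-Hochberg adjustment over 23999 probe sets and a threshold of 0.05. Each gene was read from the probe set of highest mean over the 10 arrays. Gene names come from GEO's platform annotation, which can be old: 10069 probe sets had 1 symbol, 198 several and 13732 none, and symbols were updated through RefSeq gene tables. Array properties were compared with 2-sided exact permutation tests.

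The comparison, the 39 gene lists (886 genes measured) and the tests were chosen with earlier results of these data known. The naming rule took genes past the threshold with a proper symbol (locus and clone names left out) whose brighter group mean exceeded the 30th percentile of all signals: the 15 largest differences in each direction, up to 10 in each direction that passed without every array in turn, and up to 3 of smallest p per list. One gene that the rule picks is not reported here. Alternatives were other scalings, filters, variance models and fits without single arrays. The calculations were tested on simulated data.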

Additional observations from a re-analysis of the deposited data

Results flagged for a closer look

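In 17 of the 222 groups of 5 arrays checked (genes, list averages and array properties), 1 array lay far from the other 4; chance alone gives about 1 in 20. RCO replicate 2 was the distant array for BCAT1 at 5.82 (other RCO arrays 4.99 to 5.21), CD3G at 6.14 (5.44 to 5.62), ENPP2 at 7.17 (6.18 to 6.44) and EPHX1 at 9.73 (10.25 to 10.39). The same array was the distant one for the list averages, relative to control, of heat shock proteins at 0.0800, calcium handling at −0.291 and lymphocyte markers at 0.741. RCO replicate 1 stood apart for SMPDL3A at 5.55 (7.64 to 7.91), for interferon-stimulated genes at 0.0844, endothelial markers at −0.553 and red blood cell markers at 0.636, and for the spike-in signal at 11.09. RCO replicate 3 stood apart for NPPB at 12.91 (10.79 to 11.28). Among RCS arrays, replicate 5 stood apart for CPT2 at 6.24 (5.73 to 5.85) and TPD52 at 8.03 (8.65 to 8.84), replicate 3 for GCLC at 8.03 (7.17 to 7.40), and replicate 1 for endothelial markers at −0.319. No cause of these deviations was tested.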

How the results depend on the processing

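The 267 genes that passed kept their sign in every alternative in which each was tested (242 of them with dim probe sets left out), except that 265 of 267 did when all probe sets of a gene were averaged. They had been chosen on the same arrays, so a change of sign was unlikely. Counts moved far more. Against 931 probe sets, 605 passed after quantile normalization, 469 with dim probe sets left out, 3415 with array weights, 4572 with all 4 groups fitted, 6243 without RCO replicates 2 and 3, and 424 at a minimum of 1.5-fold. Leaving out each array gave 22 to 4014. Against 267 genes, 174 passed with dim probe sets left out, 1099 with array weights, 1468 with all 4 groups and 2077 without RCO replicates 2 and 3, and leaving out each array gave 7 to 1277. Of 45 list members, these settings gave 198 with array weights, 243 with all 4 groups, 352 without RCO replicates 2 and 3, and 0 to 234 with each array left out. With the replicate number as a block, 3568 probe sets, 1227 genes and 239 list members passed, among them 26 oxidative phosphorylation genes, all lower. Nothing in the labels says that a number marks a shared animal or day. Same-numbered arrays correlated at 0.0775 to 0.440 in their deviations, and since 1 pair lay under 0.1 the pairing was not used; 3 of 5 RCO arrays correlated best with their own number, a hint from the data only. The difference on the first principal component was 33.1 to 48.7 with each array left out. The count of genes past the threshold with the place of RCO between control and RCS was 194, and 1075 without RCO replicates 2 and 3. The share of probe sets higher in RCS among those that passed was 47.4%, and 53.2% after quantile normalization, 55.1% after median centring, 59.9% with dim probe sets left out and 41.9% with an intensity trend. Of the 65 genes named by rule, 13 missed the threshold after quantile normalization (LCP1, CTSZ and ISG12(A) among them), 10 with dim probe sets left out, 10 with probe sets averaged, 7 with group weights, 3 after median centring, 1 with an intensity trend, and 3 with all 4 groups fitted (NPPB, SCD and NR4A2). The cause of these shifts was not tested. Background signal limits what can be read from the dim probe sets, and 5 arrays a group limit the precision.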
